A study of Mus musculus with 6 samples.

Results

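The cystatin A and stefin genes (Csta1, Csta2, Csta3, Stfa1, Stfa2 and Stfa3) and the epidermal cystatin Cst6 were followed in primary mouse keratinocytes with and without iASPP, the product of Ppp1r13l. They were taken by name from the table of raw read counts, where all 7 were found among 55367 gene names, and all 7 passed the filter on low counts together with 14916 genes in all. Csta2 passed that filter through the iASPP-KO libraries alone, since 2 of the 3 iASPP-WT libraries held no count of it.

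RNA was sequenced from 3 iASPP-KO and 3 iASPP-WT cultures, 1 of each in 3 batches. All 6 cultures came from pups 2 days old with the genotype Ppp1r13lflox/flox;Cre+ERT on a mixed background of C57BL/6 and 129/Sv, in which the tamoxifen-activated recombinase is expressed from the ubiquitous Rosa26 locus and deletes the floxed part of Ppp1r13l. Cultures in low-calcium medium received fresh medium after 24 h, with tamoxifen for iASPP KO and without it for iASPP WT, and were kept for a further 4 days. The labels and the methods of the study give the tamoxifen dose with different unit prefixes, so no dose is stated here. The iASPP-WT cultures had the floxed alleles and the recombinase but no tamoxifen, so the drug and the deletion cannot be told apart in these data. Nothing says whether the 3 batches came from separate litters or pools of animals. With batch in the model, p-values measure the spread of the difference between conditions over these 3 batches, with variance information drawn from other genes as well.

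Stefins are small cystatins that stay inside the cell and block papain-like cysteine proteases such as cathepsins B, H and L. They fill the active-site cleft of the protease with a wedge made of the amino terminus and hairpin loops, the first of which is a short stretch conserved throughout the cystatin family. Cystatin A is abundant in the upper epidermis and is a precursor of the cornified envelope, the cross-linked protein shell of the outermost keratinocytes. Where humans have a single cystatin A gene, the mouse has a row of closely related copies on chromosome 16. Cst6 encodes cystatin E/M, a secreted cystatin of the epidermis and hair follicle that blocks cathepsin L and, through a separate site, legumain. Loss of Cst6 in mice is known to disturb cornification, with cathepsin L and the transglutaminase Tgm3 acting downstream.

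The 6 chromosome 16 genes lie within the interval chr16:36119946-36455392 of GRCm38, in the positions given by the count table. Csta1 (chr16:36119946-36131241), Stfa2 (chr16:36403992-36408457) and Stfa3 (chr16:36450537-36455392) are on the minus strand. Csta3 (chr16:36210403-36217788), Csta2 (chr16:36221468-36257444) and Stfa1 (chr16:36276951-36285373) are on the plus strand. Cst6 lies elsewhere, at chr19:5344705-5349574 on the minus strand.

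The stretch of coding sequence around the conserved first loop shows how alike the members are. Each line gives 42 coding bases from the GENCODE vM21 transcript on GRCm38, which is also the length of a read in these libraries, with the 15 bases that encode the loop in capitals.
Csta1: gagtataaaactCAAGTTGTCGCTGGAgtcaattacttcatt
Csta2: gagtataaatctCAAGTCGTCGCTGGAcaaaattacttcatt
Csta3: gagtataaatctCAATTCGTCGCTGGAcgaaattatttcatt
Stfa1: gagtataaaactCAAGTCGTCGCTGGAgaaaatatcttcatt
Stfa2: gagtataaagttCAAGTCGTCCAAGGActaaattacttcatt
Stfa3: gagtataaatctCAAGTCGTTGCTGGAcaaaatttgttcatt
Cst6: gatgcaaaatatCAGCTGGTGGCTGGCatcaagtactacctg
Csta2 and Stfa1 had the same loop bases, while every other member had its own. Over the whole coding sequence, the 6 chromosome 16 members were 79.0% (Stfa1 and Stfa2) to 87.6% (Csta3 and Stfa1) identical in their aligned bases, and Cst6 was 51.2% to 61.5% identical to them.

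Relatives outside the members were closer still. Stfa1 was 97.9% identical to Cstdc5 and 94.4% to Cstdc6, Csta2 was 96.9% identical to Cstdc4, and Stfa2 was 96.4% identical to Stfa2l1. Stfa1 and Cstdc5 have an unbroken run of 100 coding bases in common, shown here because no read of 42 bases from it can be assigned to either gene.
Stfa1 and Cstdc5: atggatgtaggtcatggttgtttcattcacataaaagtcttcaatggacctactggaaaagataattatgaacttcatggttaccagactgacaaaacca
The counting kept reads with a unique place in the genome, so reads from such runs are missing from the counts of both genes.

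The share of each gene that a 42-base read can place was therefore computed from all annotated transcripts. Of the 42-base windows of Stfa1, 30.3% recurred exactly in another annotated gene, in Cstdc5, Cstdc6 or Gm15845. The share was 23.3% for Stfa2, with Stfa2l1, Gm4758 and Gm49652 as the other genes, and 22.9% for Csta2, with Cstdc4 and Gm7260. For Csta1 it was 1.44% and for Cst6 0.147%. Csta3 and Stfa3 had none, over 253 and 371 windows. Within 1 base of a window of another cystatin gene of the cluster were 59.2% of the windows of Stfa1, 45.6% of Stfa2 and 31.5% of Csta2, against 1.35% of Stfa3, 1.08% of Csta1 and none of Csta3. The counts of Csta1, Csta3, Stfa3 and Cst6 thus rest on sequence found nearly or wholly in 1 annotated gene, and those of Stfa1, Stfa2 and Csta2 on a part of each gene. Unannotated copies and strain differences were not covered by this comparison.

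**Figure D1:**
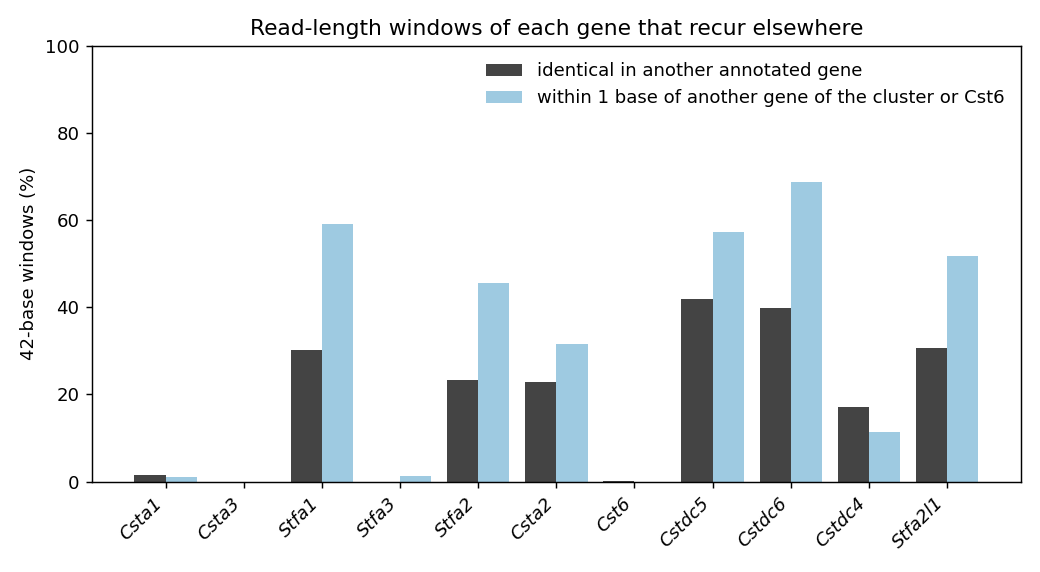
Percentage of the 42-base windows of each gene that are identical in another annotated gene (dark bars) or within 1 base of a window of another gene of the chromosome 16 cluster or Cst6 (light bars). Csta1, Csta3, Stfa3 and Cst6 stand at or near 0, while Stfa1, Stfa2 and Csta2 reach 30.3%, 23.3% and 22.9% for identical windows.

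Libraries held 20202517 to 25157117 counts. Ppp1r13l, the targeted gene, was counted 320, 395 and 139 times with tamoxifen (batch 1, batch 2, batch 3) and 697, 1100 and 472 times without it, and fell by 1.45 on the log2 scale (SE 0.18, adjusted p = 0.0030). All its exons are counted, so this is a check on the whole gene and not on the deleted part alone. Keratinocyte markers summed to 28555 to 34375 CPM (reads per 1000000 counts of a library, after TMM scaling) with all 8 above 1 CPM, and 1 of them, Krt10, was lower in iASPP KO. In bulk RNA, fewer cells of a type and less RNA per cell cannot be told apart.

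Csta1, Csta3 and Stfa1 were higher in iASPP-KO than in iASPP-WT keratinocytes in all 3 batches and past the test, by 2.30-fold, 3.73-fold and 2.03-fold. The test was edgeR's quasi-likelihood test over all 14916 genes with batch in the model, at an adjusted p of 0.05. Of all tested genes, 2.17% were called higher in iASPP KO and 1.95% lower. None of the 7 members was called lower, where edgeR gave 0 members also at an unadjusted p of 0.05, as did DESeq2. Without Csta2, the median log2 fold change of the other 6 members was 1.11, and that of all tested genes was 0.01.

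Csta1, the mouse gene named for cystatin A, had 127, 104 and 209 CPM in the iASPP-KO libraries of batches 1 to 3, from 2862, 2321 and 4930 counts. In iASPP WT it had 64.0, 59.9 and 59.3 CPM, from 1366, 1461 and 1332 counts. The 3 iASPP-WT libraries lay close together, and every iASPP-KO library was above them. The share of all tested genes whose conditions are separated in this way is not given here. The separation is thus a description only, for Csta1 and for the genes below. The means were 147 ± 55.3 CPM (SD, n = 3) and 61.1 ± 2.54 CPM (SD, n = 3). The log2 fold change was 1.20 (SE 0.18, adjusted p = 0.0069), and within batches it was 0.99, 0.80 and 1.82. Csta1 was the member that stayed past the threshold with any batch left out.

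Csta3, a cystatin A copy with no window in common with any other annotated gene, showed the greatest fold change of the 3 called members. It had 17.2, 13.4 and 5.82 CPM in iASPP KO, from 387, 298 and 137 counts. The iASPP-WT libraries had 2.16, 3.45 and 3.43 CPM, from 46, 84 and 77 counts, all below the lowest iASPP-KO library. Csta3 rose by 1.90 on the log2 scale (SE 0.40, adjusted p = 0.028). Its within-batch values were 2.95, 1.93 and 0.75, so the difference in batch 3 was the smallest, where for Csta1 it was the greatest. Leaving out batch 1 gave an adjusted p of 0.135, and leaving out batch 2 gave 0.108.

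Stfa1, the stefin that shares the most sequence with its relatives, had 25.8, 14.1 and 16.5 CPM in iASPP KO and 10.9, 8.53 and 7.71 CPM in iASPP WT, from 579, 315 and 388 counts against 233, 208 and 173. The groups did not overlap. Stfa1 rose by 1.02 on the log2 scale (SE 0.21, adjusted p = 0.024), with 1.23, 0.72 and 1.09 within batches, the most even of the 7 genes. Without batch 1 the adjusted p was 0.154. Cstdc5, whose run of 100 bases is printed above, had a higher level per length than Stfa1, at 259 against 26.5 CPM per kilobase of exon in iASPP KO and 222 against 12.7 in iASPP WT. Its values were 229, 138 and 247 CPM in iASPP KO and 206, 184 and 136 CPM in iASPP WT. The groups of Cstdc5 overlapped, with a log2 fold change of 0.20 (SE 0.20, adjusted p = 0.699). How many reads of Cstdc5 were counted as Stfa1, or the reverse, was not tested.

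**Figure D2:**
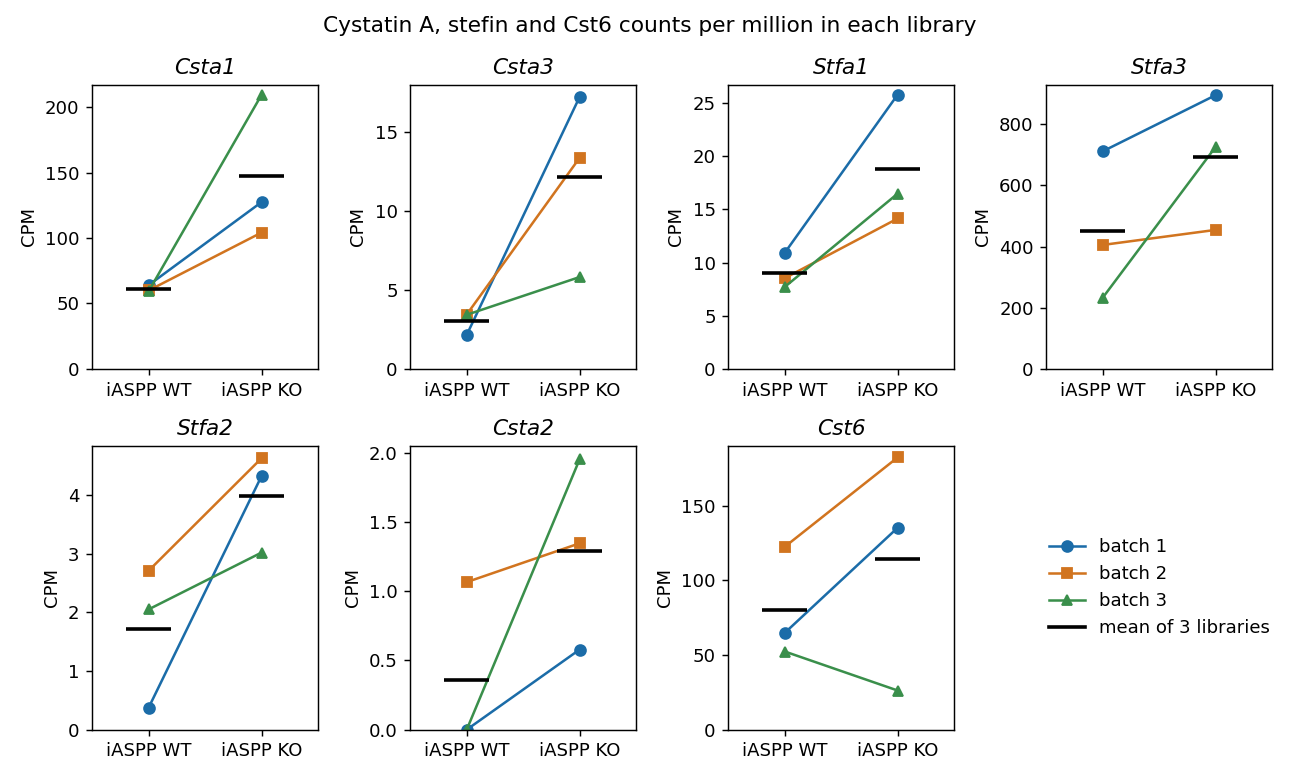
CPM of each gene (vertical axis, linear from 0) in iASPP-WT and iASPP-KO libraries, with the libraries of a batch joined by a line and the mean of 3 libraries as a black bar. Csta1, Csta3, Stfa1 and Stfa2 have every iASPP-KO library above every iASPP-WT library, a separation whose share among all tested genes is not given. Cst6 is higher in iASPP KO in batches 1 and 2 and lower in batch 3, at 26.2 against 52.4 CPM.

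Stfa3 was the member with the most counts, at 896, 455 and 727 CPM in iASPP KO and 712, 405 and 233 CPM in iASPP WT. The groups overlapped, because the iASPP-WT library of batch 1 had more than the iASPP-KO library of batch 2. The log2 fold change was 0.70 (SE 0.24) and did not pass the threshold (adjusted p = 0.154). Within batches it was 0.33, 0.17 and 1.64, and without batch 3 the estimate was 0.25. No window of Stfa3 recurs exactly in another annotated gene.

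Stfa2 had few counts, 97, 103 and 71 in iASPP KO and 8, 66 and 46 in iASPP WT. In CPM these were 4.32, 4.62 and 3.02 against 0.375, 2.71 and 2.05, and the groups did not overlap. The log2 fold change of 1.45 had an SE of 0.62 and an adjusted p of 0.272, with 3.25, 0.75 and 0.54 within batches. The batch 1 value rests on 8 counts in iASPP WT, and without that batch the estimate was 0.67. Without batch 3 it was 1.95 and passed the threshold (adjusted p = 0.0195).

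Csta2 was close to the limit of detection, with 13, 30 and 46 counts in iASPP KO and 0, 26 and 0 in iASPP WT. With each iASPP-WT count of 0 replaced by a floor of 3, the ratio was 4.12 in batch 1 and 14.6 in batch 3. In batch 2 it was 1.26. The counting error of the iASPP-KO counts is left out of these ratios, so they are not lower limits. The edgeR log2 fold change of 3.37 (SE 1.57, adjusted p = 0.317) depends on the prior count and did not pass the threshold. It was 2.63, 7.81 and 1.90 without batches 1, 2 and 3, and did not pass in any of these fits. The 2 iASPP-WT libraries without a count stood apart from that of batch 2, which was level with iASPP KO.

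Summed over the 6 chromosome 16 genes, the clustered cystatins took 1071, 592 and 964 CPM in iASPP KO and 789, 481 and 306 CPM in iASPP WT, or 0.0560% to 0.102% and 0.0340% to 0.0789% of the library. The ratios within batches were 1.36, 1.23 and 3.15, a mean log2 ratio of 0.80 ± 0.75 (SD, n = 3 batches) for which no test was made. Stfa3 supplied 75.4% to 83.6% of the summed counts in iASPP KO and 76.3% to 90.2% in iASPP WT, so the sum follows that gene. With Stfa3 left out, a choice made after seeing the data, the mean log2 ratio was 1.25.

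**Figure D3:**
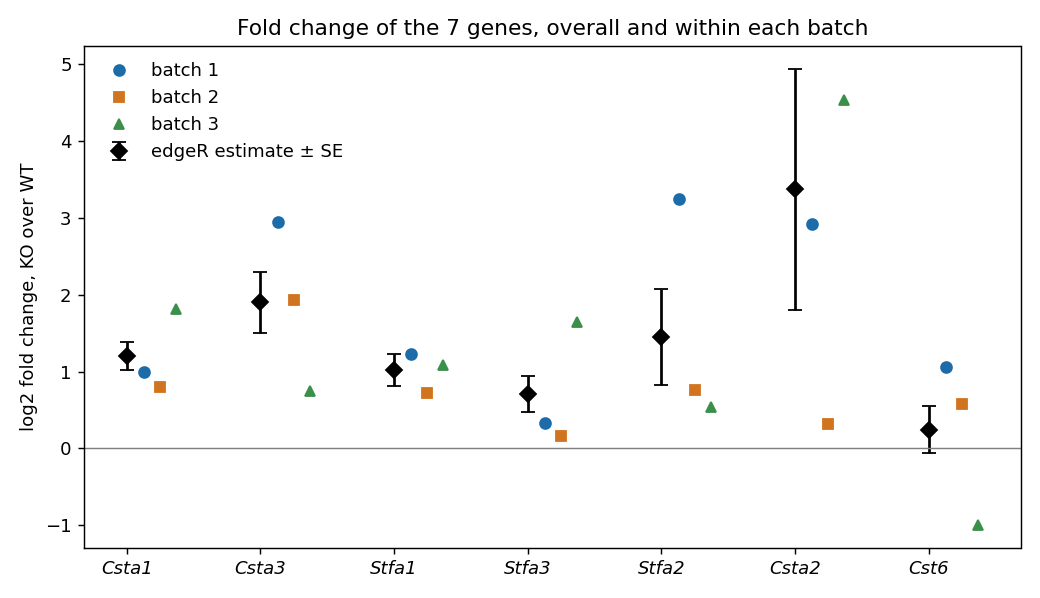
log2 fold change of iASPP KO over iASPP WT for the 7 genes, with the edgeR estimate ± SE as black diamonds and the difference of log2 CPM (prior count 2) within batches 1, 2 and 3 as coloured points. The point of Cst6 in batch 3 is the only one below 0, at -0.996, and the highest points of Csta3 and Csta1 are those of batches 1 and 3.

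Per kilobase of exon, the scale on which genes can be compared, Stfa3 had the highest level in both conditions, with 1093 ± 588 CPM per kilobase (SD, n = 3) in iASPP WT and 1681 ± 540 in iASPP KO, and no library of another member reached its range. In iASPP WT the order after it was Csta1 (21.9 ± 0.914), Cst6 (19.5 ± 9.16), Stfa1 (12.7 ± 2.35), Csta3 (10.2 ± 2.52), Stfa2 (3.63 ± 2.55) and Csta2 (0.556 ± 0.964), all in CPM per kilobase. Neighbours in this order overlapped in range, except that Csta3 was above Stfa2 in every library. In iASPP KO, Csta3 came next with 41.3 ± 19.8 CPM per kilobase after Csta1 with 52.8 ± 19.9, and the ranges of Csta1, Csta3, Cst6 and Stfa1 overlapped from each to the next. The annotated exons of Csta3 amount to 294 bases and those of Csta1 to 2783, and windows that no read can place lower the levels of Stfa1, Stfa2 and Csta2.

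Cst6, the secreted cystatin, was not called, and its direction differed between batches. It had 135, 183 and 26.2 CPM in iASPP KO and 64.9, 123 and 52.4 CPM in iASPP WT, from 3040, 4066 and 617 counts against 1385, 2989 and 1176. The groups overlapped, and batch 3 had the lowest level in both conditions. The log2 fold change was 0.24 (SE 0.30, adjusted p = 0.770), with 1.06, 0.57 and -0.996 within batches, the last in the opposite direction. Without batch 3 it was 0.81 and past the threshold (adjusted p = 2.8e-08), and without batch 1 it was -0.19 (adjusted p = 0.903). The SE without batch 3 was 0.13, against 0.30 with all batches. With so few batches left, that p-value leans heavily on variance information from other genes.

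Batch 3 also stood apart in other genes, in both conditions. The 6 fibroblast markers summed to 454 CPM in iASPP KO and 669 CPM in iASPP WT of batch 3, against 33.7 to 51.5 CPM in the other 4 libraries. Of these markers, 2 were called lower in iASPP KO, Col1a2 and Col3a1. Pdgfra went the other way, with a log2 fold change of 0.81, while Col1a1 had -0.33, Lum -1.14 and Dcn -0.02. These were not called (edgeR adjusted p of 0.258 or above). Macrophage markers summed to 67.0 to 86.5 CPM in iASPP KO and 44.0 to 68.1 CPM in iASPP WT, with C1qc at 0 counts in all libraries. Csf1r was called higher in iASPP KO, while Adgre1, Lyz2, Cd68 and Cd14 were not called (edgeR adjusted p of 0.179 or above). The sum hides opposite batch patterns. In batch 3, Lyz2 was at its highest, with 59.1 CPM in iASPP KO and 49.6 CPM in iASPP WT. Csf1r was at its lowest there, with 5.23 and 1.92 CPM. The melanocyte list held 383 to 992 CPM in iASPP KO and 328 to 1048 CPM in iASPP WT, with none of its 4 genes called (adjusted p of 0.588 or above). Its lowest sum in each condition was that of batch 2, not batch 3. The part of these differences in the cystatin values was not tested.

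Stefins are also abundant in neutrophils, so markers of that cell type were examined beside them. Of 12 neutrophil markers, Camp, Elane, Ctsg, Ly6g and Retnlg had 0 counts in all 6 libraries, and the list summed to 1.69 to 7.82 CPM in iASPP KO and 1.11 to 2.16 CPM in iASPP WT. The 2 neutrophil markers with enough counts to be tested, Cxcr2 and Mmp8, were not called (adjusted p of 0.611 and 0.606). Stfa2l1, a stefin relative, had 3 counts in the 6 libraries together, and 30.7% of its windows recur exactly in another annotated gene. Other relatives had more, with Cstdc5 at 136 to 247 CPM and Cstdc6 at 2.90 to 11.4 CPM. The general leukocyte marker Ptprc was at 0.312 to 2.12 CPM in iASPP KO and 0 to 2.14 CPM in iASPP WT, and the 4 mast cell markers summed to under 1 CPM in every library.

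The stefin relatives and other annotated rows between the outermost genes numbered 26, of which 19 had no count in any library and 2 could be tested. Neither was called by edgeR or DESeq2, and 1 of them, Cstdc6, had an unadjusted p under 0.05. Cstdc6 had 257, 83 and 238 counts in iASPP KO and 103, 116 and 65 in iASPP WT. Its log2 fold change was 0.92 (SE 0.41, adjusted p = 0.296), with 1.23, -0.35 and 1.77 within batches. Cstdc6 shares 39.9% of its windows with Cstdc5 or Stfa1, so its counts too come from a part of the gene. Cstdc3, Cstdc4 and Stfa2l1 had 0 to 10 counts in a library.

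Within 500 kilobases of the outermost genes there were 61 further rows of chromosome 16, the relatives included, and 18 of them could be tested. None was called by edgeR or DESeq2, and at an unadjusted p under 0.05 there were 2 higher and 1 lower in iASPP KO, where all tested genes gave 8.66% and 8.09%. Their median log2 fold change was 0.06. The called genes of the neighbourhood were Csta1, Csta3 and Stfa1, and the genes at its edges, from Slc49a4 to Ccdc58 and from Ildr1 to Golgb1, were not called.

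**Figure D4:**
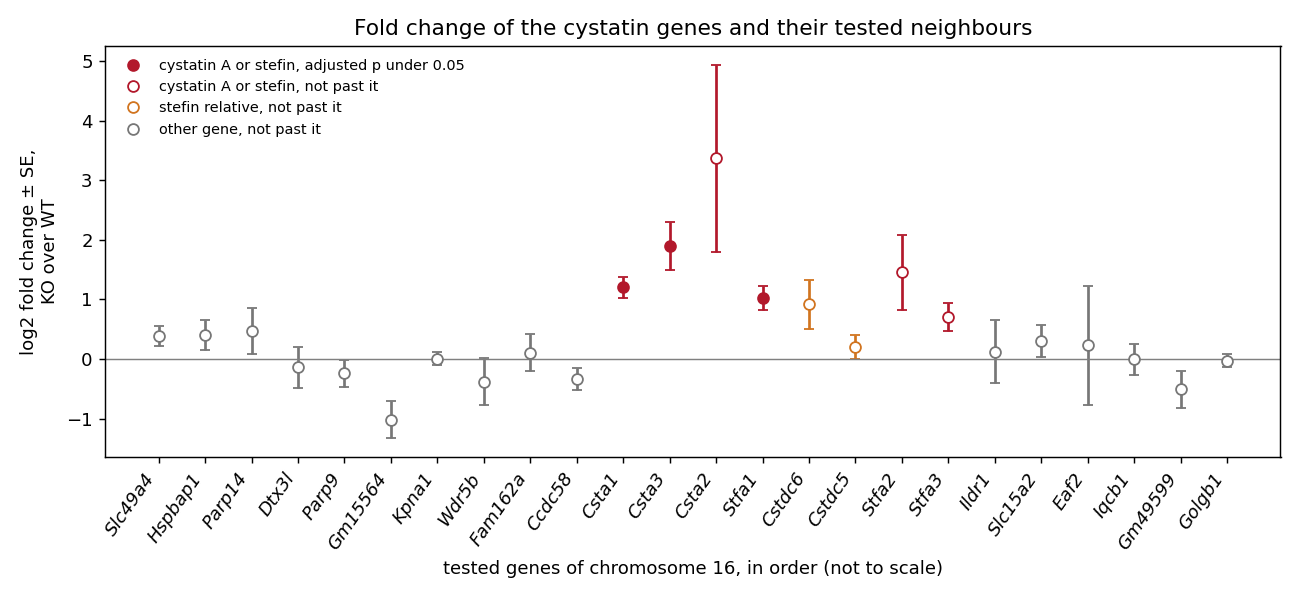
log2 fold change ± SE of iASPP KO over iASPP WT for every tested gene of the chromosome 16 interval and 500 kilobases to each side, in chromosomal order and not to scale. Filled points (Csta1, Csta3 and Stfa1) passed the adjusted p of 0.05, and the 18 genes that are no member have open points.

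The sequence before the annotated starts was compared next, since the members lie side by side. The letters TTTAAAACC, a candidate chosen after the sequences had been seen, occurred on either strand in 0.393% of 32851 RefSeq promoters (250 bases before to 50 after each start, GRCm38.p6). They were present before the start of Csta3, Stfa1, Stfa2 and Stfa3, and not in the windows of Csta1 and Csta2. The relatives Stfa2l1, Cstdc4 and Cstdc5 and 1 of the 2 starts of Cstdc3 had them as well, so the letters are common to most of the cluster and not particular to its called genes. The bases just before the annotated start of Csta1 match bases that lie well ahead of the letters in Stfa1. The annotated starts of these genes thus do not correspond. The matching place in Csta1 may lie past its window, which ends 50 bases after the start, and was not searched. The 100 bases before the start are printed for Csta3 and Stfa3, the called and the most abundant of the genes with sequence of their own, with these letters in capitals.
Csta3 (chr16:36210303-36210402, plus strand): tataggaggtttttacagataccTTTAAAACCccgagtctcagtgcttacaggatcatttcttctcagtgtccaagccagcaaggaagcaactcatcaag
Stfa3 (chr16:36455393-36455492, minus strand): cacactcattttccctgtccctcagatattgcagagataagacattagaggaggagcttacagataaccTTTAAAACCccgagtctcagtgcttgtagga
The letters began 77 bases before the annotated start of Csta3, 30 before that of Stfa1, 29 before that of Stfa2 and 31 before that of Stfa3. The AP-1 letters TGAGTCA, the site of the Fos and Jun factors, were searched on both strands and occurred in 5.20% of all promoters. Among the 6 chromosome 16 genes they were in the window of Stfa3 alone, 30 bases after its start. Cst6 had no entry. A match of letters is a description of the sequence and not a bound site.

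The proteases that these inhibitors act on were measured in the same libraries. Of 11 cysteine proteases 10 could be tested, and 1 was called higher in iASPP KO and none lower. At an unadjusted p under 0.05 there were 4 higher and 1 lower, where all tested genes gave 8.66% and 8.09%. DESeq2 called 2 higher and 0 lower, against 1.5% and 1.27% of the genes it was run on. Cathepsin L (Ctsl), a target of stefins and of Cst6, had 3125, 4716 and 2780 CPM in iASPP KO and 1275, 2142 and 1268 CPM in iASPP WT. The groups did not overlap, and the log2 fold change was 1.19 (SE 0.11, adjusted p = 0.0011), with 1.29, 1.14 and 1.13 within batches. Ctsl thus differed in the same direction as Csta1, Csta3 and Stfa1. Legumain (Lgmn), the other protease blocked by Cst6, had 37.6, 31.5 and 31.5 CPM in iASPP KO against 46.2, 43.2 and 40.2 CPM in iASPP WT, and its log2 fold change of -0.37 (SE 0.14) did not pass the threshold (adjusted p = 0.195).

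Of 15 other cystatins, 3 could be tested, 5 had no count, and 1 was called higher in iASPP KO. This was Cstb, the widely expressed stefin B, with 329, 374 and 244 CPM in iASPP KO and 211, 287 and 143 CPM in iASPP WT. The groups overlapped between batches, but within each batch iASPP KO was above iASPP WT, by 0.64, 0.38 and 0.78 on the log2 scale. Cstb rose by 0.60 on the log2 scale (SE 0.12, adjusted p = 0.022), and it lost the call without batch 1 or without batch 2.

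Of the 3 transglutaminases, the enzymes that cross-link the cornified envelope, Tgm1 and Tgm3 were called higher in iASPP KO and Tgm5 was not called. Tgm3 had 165, 143 and 60.0 CPM in iASPP KO and 85.2, 88.1 and 7.75 CPM in iASPP WT, and a log2 fold change of 1.45 (SE 0.34, adjusted p = 0.043). The library of batch 3 in iASPP WT was far below the others, and the within-batch values were 0.95, 0.70 and 2.94. Tgm1 had a log2 fold change of 0.57 (SE 0.12, adjusted p = 0.029), with 0.80, 0.45 and 0.47 within batches. Tgm1 lost its call without batch 1 (adjusted p = 0.222) and without batch 2 (0.112). Tgm3 lost its call under DESeq2 (adjusted p = 0.165) and robust dispersion (0.42).

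**Figure D5:**
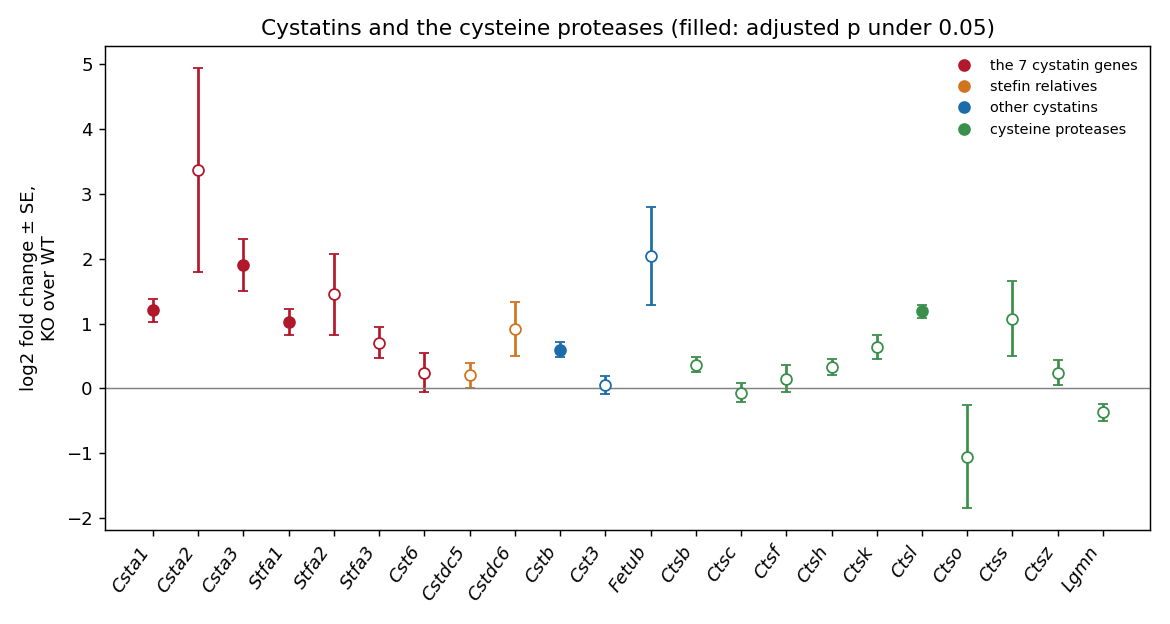
log2 fold change ± SE of iASPP KO over iASPP WT for the tested cystatins and cysteine proteases, coloured by list, with filled points past the adjusted p of 0.05. The filled points are Csta1, Csta3, Stfa1, Cstb and Ctsl, all between 0.60 and 1.90.

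Over the 6 libraries, which share condition and batch, the genes of at least 5 CPM whose log2 CPM was most like that of Stfa3 were Psme1 (Pearson's r = 0.985), Alg1 (0.979), Arhgef28 (0.976), Cmtm3 (0.967) and Sirt5 (0.966), out of 10142 genes compared. None of these 5 was called between conditions by edgeR (adjusted p of 0.407 or above). For Cst6 they were Tef (r = 0.999), Egr3 (0.995), Slco1a5 (0.994), Smpd3 (0.992) and Fam3b (0.992). Each of the 5 was, as Cst6 was, higher in iASPP KO in batches 1 and 2 and lower in batch 3. Genes picked for a high r over the same libraries are bound to share most of the pattern of Cst6, so this is no separate result. With 6 points, 92 genes ranked the libraries in the same order as Cst6 and 11 in the same order as Stfa3. Among the members, r ran from -0.31 (Csta1 and Cst6) to 0.82 (Stfa1 and Stfa3).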

How the data were processed

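The 6 libraries (total RNA after rRNA depletion, 1 × 42 bases) were grouped by GEO's labels, and batch was taken from the batch label. Per the labels and the methods of the study, the authors trimmed reads with cutadapt 2.10, aligned them with STAR 2.7.3 to GRCm38 (mm10) with GENCODE vM25, and deposited counts of reads per gene name, made with featureCounts 2.0.0 on exons and the gene's strand without normalization. Multi-mapping reads were not counted. A deposited table of the authors' own DESeq2 comparison was not used.

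The test was edgeR's (version 4.0.16, R 4.3.3): genes were kept by filterByExpr on condition and scaled by TMM, and glmQLFit and glmQLFTest were run with terms for batch and condition, with Benjamini-Hochberg adjustment over 14916 genes and a threshold of 0.05. In the main fit the residual degrees of freedom were 2 and the common dispersion 0.0627. The prior degrees of freedom of that fit, which come from all genes together, were 8.17. CPM values are TMM-scaled, within-batch log2 differences have a prior count of 2, and SD is over 3 libraries. The floor of a zero count is 3 counts, and floors cover counting error only, as no molecular identifiers were used. The pairing comes from the batch label, with 1 culture of each condition in a batch. Deviations from the condition means correlated at 0.30, 0.37 and 0.57 within batches and at -0.43 to 0.18 between them.

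Sequences come from GENCODE vM21 (GRCm38) transcripts, matched by position, where Csta2 and Csta3 are named 2010005H15Rik and Gm5416, and from RefSeq promoters (GRCm38.p6). Promoters were found for the 6 chromosome 16 members. The members and lists were chosen with earlier results of these data known. Named were the members, list genes past the threshold, Ctsl, Lgmn, Cstb, Tgm3, neighbours past the threshold, Ppp1r13l, and the 5 genes most like Stfa3 and Cst6. Cstdc5, Cstdc6 and the marker genes were named after their values were seen.

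Alternatives were a model without batch, DESeq2 1.42.0, its size factors, upper-quartile scaling, no filter beyond 1 count, at least 10 counts in every library, robust dispersion, a prior count of 0.5, Spearman's rho, and leaving out each batch.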

Additional observations from a re-analysis of the deposited data

How the results depend on the processing

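Csta1, Csta3 and Stfa1 kept direction and call under DESeq2, both other scalings, both other filters and robust dispersion. Without the replicate block (batch left out of the model) no member was called, with log2 fold changes of 1.27 for Csta1, 2.01 for Csta3 and 1.05 for Stfa1 (edgeR adjusted p = 0.973 for each) and 1.83 for Csta2 (0.977). In that fit 0 of the 7 members and 0 genes in either direction passed, against 3 members, 360 higher and 331 lower genes at an unadjusted p under 0.05, and the relatives, other cystatins, proteases and transglutaminases also had 0. With no filter beyond 1 count, Stfa3 passed (0.71, adjusted p = 9.3e-07) and 3 proteases were called higher. The calls among all genes were then 624 higher and 491 lower, against 323 and 291 in the main fit. The SE of Stfa3 was 0.12 without the filter, against 0.24 in the main fit. Its p-value there leans heavily on variance information from other genes. DESeq2 called 2 proteases and 1 transglutaminase higher, and robust dispersion 1 transglutaminase.

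Leaving out each batch in turn gave log2 fold changes of 1.37 to 2.46 for Csta3, 0.92 to 1.17 for Stfa1, 0.67 to 1.95 for Stfa2, 0.25 to 0.99 for Stfa3, 1.90 to 7.81 for Csta2 and -0.19 to 0.81 for Cst6. The members called higher then numbered 1 to 5: Csta1 alone without batch 1, Csta1 and Stfa1 without batch 2, and Csta1, Csta3, Stfa1, Stfa2 and Cst6 without batch 3. Other cystatins called higher numbered 0 to 1, proteases 1 to 2, transglutaminases 1 to 2, and all genes 169 to 793 higher and 117 to 662 lower. The causes were not tested. Over 11 fits the adjusted p ran from 8.5e-16 to 0.973 for Csta1, from 2.7e-12 to 0.973 for Csta3 and from 4.4e-04 to 0.973 for Stfa1. The lowest values were those with no filter beyond 1 count for Csta1 and Stfa1, and without batch 3 for Csta3. They lean heavily on variance information from other genes.

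The summed chromosome 16 value ranged from 0.37 to 1.05 over the batches left out, was 0.66 with 5 stefin relatives added and 1.49 as the mean over genes in place of the sum. The relatives, the sum without Stfa3 and its values without a batch were added after seeing the data. A prior count of 0.5 moved no within-batch value by more than the spread between batches of the same gene. That spread was wide for Csta2, whose value moved from 2.92 to 4.77 in batch 1 and from 4.54 to 6.49 in batch 3. By Spearman's rho, 3 of the 5 genes named for Stfa3 and all 5 named for Cst6 were at the highest value. With at least 10 counts in every library, Csta2 and Stfa2 gave no value.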
